A study of Mus musculus with 12 samples.

Results

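The miR-15/16 family and its relatives miR-103 and miR-107 were followed through small-RNA libraries of the mouse hippocampus as 8 mature strands, chosen by family name, out of 1908 miRNAs in the count table. They are miR-15a-5p, miR-15b-5p, miR-16-5p, miR-195a-5p and miR-497a-5p, which share a seed, then miR-103-3p and miR-107-3p, which share a related seed, and miR-107-5p, the opposite strand of the miR-107 hairpin. All 8 were found, miR-497a-5p under the older name miR-497-5p, and all 8 had enough counts to be tested. The libraries came from 12 male C57BL/6 mice of 3 months, littermates bred from heterozygous Gld2 parents, with 6 wild-type mice (WT) and 6 mice of genotype GLD2-/- (GLD2KO). The labels name no treatment and no tissue-limited deletion in either group. Gld2 is a cytoplasmic enzyme that lengthens RNA 3′ ends with adenosines, and the study looked at its part in nontemplated additions to miRNAs. The values are reads counted for each miRNA, given as counts per 1000000 (CPM) after scaling between libraries, and they are relative to the other miRNAs of the same library.

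MicroRNAs guide Argonaute proteins to messenger RNAs by pairing of the seed, bases 2 to 8 from the 5′ end, and lower the output of those messages. The miR-15/16 family is known as a brake on the cell cycle, acting on cyclins and on the survival factor BCL2, and miR-195 and miR-497 are its members from another locus. MiR-103 and miR-107 lie in introns of the pantothenate kinase genes, whose enzymes start coenzyme A synthesis, and are known to act on Dicer messages and on insulin signalling.

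The mature sequences are shown because they set the members apart by seed and by 5′ base and show how alike the members are. They are from RefSeq (GRCm38.p6), 5′ to 3′, with the seed in capitals and the prefix mmu for the mouse.
mmu-miR-15a-5p: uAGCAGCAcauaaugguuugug
mmu-miR-15b-5p: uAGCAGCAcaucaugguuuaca
mmu-miR-16-5p: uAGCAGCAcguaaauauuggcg
mmu-miR-195a-5p: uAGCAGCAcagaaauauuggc
mmu-miR-497a-5p: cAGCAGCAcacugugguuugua
mmu-miR-103-3p: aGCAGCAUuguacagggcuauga
mmu-miR-107-3p: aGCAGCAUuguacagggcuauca
mmu-miR-107-5p: aGCUUCUUuacaguguugccuug

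The 7 strands other than miR-107-5p share the run AGCAGCA. It starts at base 2 in the 5 members with the miR-15/16 seed and at base 1 in miR-103-3p and miR-107-3p, so the seeds of the 2 sets are shifted by 1 base. MiR-103-3p and miR-107-3p have 23 bases each and differ only by G22C, counted from 1 at the 5′ end of miR-103-3p, so a read that ends before base 22 matches both. Over the 21 bases they have in common, miR-16-5p and miR-195a-5p differ by G10A and U11G. MiR-15a-5p and miR-15b-5p differ at 4 of 22 bases. How reads that match several miRNAs were counted is not given in the sources used here, and the split between miR-103-3p and miR-107-3p is uncertain for that reason.

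The members come from 9 hairpins (positions on GRCm38, GENCODE M21). Mir15a (chromosome 14, 61632027 to 61632110) and Mir16-1 (61631880 to 61631972) lie 54 bases apart in the long non-coding gene Dleu2, in an intron and an exon of it. Mir15b (chromosome 3, 69009772 to 69009835) and Mir16-2 (69009902 to 69009996) lie 66 bases apart in an intron of Smc4, a condensin gene. MiR-16-5p is made by both clusters, and its count cannot be divided between them. Mir497 (chromosome 11, 70234717 to 70234800) and Mir195a (70235042 to 70235135) lie 241 bases apart and within no annotated gene of their strand, with Mir497b annotated antisense to Mir497. Mir103-1 (chromosome 11, 35782396 to 35782481) is in an intron of Pank3, Mir103-2 (chromosome 2, 131288052 to 131288137) in an intron of Pank2, and Mir107 (chromosome 19, 34820687 to 34820773) in an intron of Pank1. Mature miR-103-3p is the same from Mir103-1 and Mir103-2.

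Library totals ran from 2197915 to 3761106 counts. Neuronal miRNAs were abundant in every library, with the sum of miR-124-3p, miR-9-5p, miR-128-3p and miR-138-5p between 108039 and 359649 CPM. In GLD2KO replicate 4 the sum was 190733 CPM, but its parts differed. MiR-128-3p had 1620 CPM there, against 6380 to 36033 CPM in the 10 libraries other than it and WT replicate 3. MiR-124-3p and miR-138-5p were lowest of GLD2KO there, at 76466.5 and 5049 CPM. MiR-9-5p, at 107598 CPM, lay above the GLD2KO median of 50126 CPM. The liver miRNA miR-122-5p and the muscle miRNAs miR-1a-3p and miR-206-3p summed to between 24.0 and 153 CPM. The choroid plexus list (miR-204-5p, miR-1298-5p and miR-448-3p) ran from 789 to 15186 CPM and the microglia and leukocyte list from 144 to 636 CPM. WT replicate 3 and GLD2KO replicate 4 stood apart from the other 10 libraries in miR-103-3p and miR-107-3p, and results that rest on them are given with and without them. In bulk tissue, fewer cells of a type and less RNA per cell cannot be told apart.

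By mean level over the 12 libraries, miR-103-3p was the highest member, at 8943 CPM and rank 24 of all miRNAs, followed by miR-107-3p at 6653 CPM. MiR-16-5p had 2808 CPM, miR-195a-5p 1389 CPM, miR-15a-5p 1108 CPM, miR-497a-5p 709 CPM and miR-15b-5p 451 CPM. MiR-107-5p was the rarest, at 39.1 CPM and rank 300. Ligation and size selection differ between small RNAs, so this order compares read counts and not molecules. MiR-103-3p had more counts than miR-107-3p in 12 of 12 libraries. MiR-107-3p lay above miR-16-5p in 10 of 12, all but WT replicate 3 and GLD2KO replicate 4. MiR-195a-5p lay above miR-15a-5p in only 7 of 12 libraries, so the order of this pair was within its spread.

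**Figure D1:**
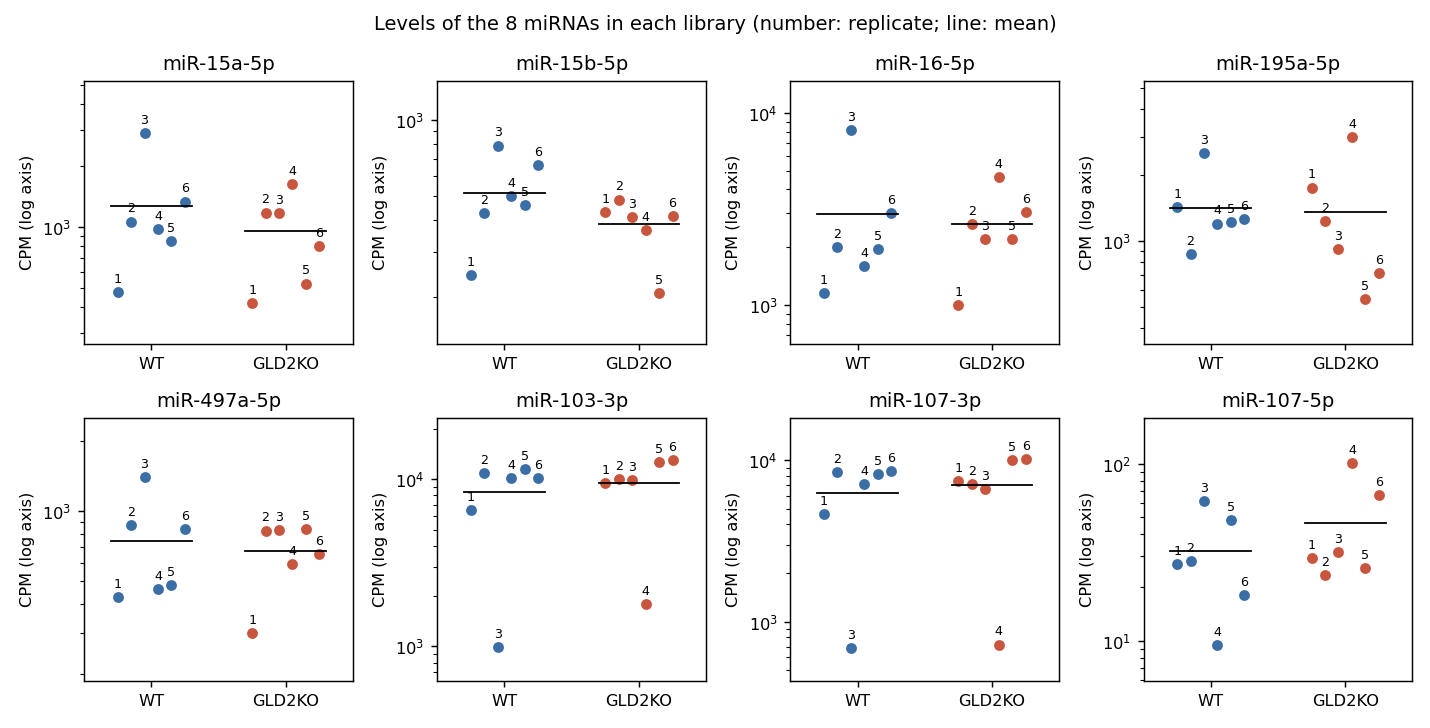
Level of each of the 8 miRNAs (CPM, log axis) in the 6 WT and 6 GLD2KO libraries; each point is a library with its replicate number, and the line is the group mean. The groups overlap for all 8 miRNAs, and WT replicate 3 and GLD2KO replicate 4 lie lowest for miR-103-3p and miR-107-3p.

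MiR-103-3p lay between 6563 and 12975 CPM in 10 libraries and far lower in the other 2. In WT it ran from 994 to 11595 CPM with a median of 10199, and in GLD2KO from 1791 to 12975 CPM with a median of 9993. The lowest WT value was that of replicate 3, and the other 5 WT libraries lay between 6563 and 11595 CPM. The lowest GLD2KO value was that of replicate 4, and the other 5 lay between 9529 and 12975 CPM. The median of the other 5 libraries of the same genotype was 10.3 times the level of WT replicate 3 and 5.61 times that of GLD2KO replicate 4. These libraries were singled out by their values, so no test is given.

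MiR-107-3p, from a different chromosome, followed the same pattern, but it may share reads with miR-103-3p. The 2 patterns are therefore not independent of how reads were assigned. WT replicate 3 had 686 CPM, and the 5 remaining WT libraries had 4632 to 8575 CPM. In GLD2KO replicate 4 it was 721 CPM against 6626 to 10202 CPM. The medians of the other 5 libraries were 12.04 and 10.3 times as high. Counting error is small at these depths, as the 2 libraries held 1165 and 1519 counts of miR-107-3p. The SD of log2 CPM within genotypes was 1.24 for miR-103-3p and 1.44 for miR-107-3p, against a median of 0.81 over the 521 tested miRNAs. Of these miRNAs 88.3% had a smaller SD than miR-103-3p and 94.0% a smaller SD than miR-107-3p. Without the 2 libraries the SDs were 0.27 and 0.33, and since those libraries were singled out by these values, no rank is given.

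The 5 members with the miR-15/16 seed were not low in those libraries. MiR-16-5p ran from 1156 to 8141 CPM in WT, with a median of 1993, and its highest value was that of replicate 3. In GLD2KO it ran from 1003 to 4647 CPM, with a median of 2434, and its highest value was that of replicate 4. Of the 521 tested miRNAs, miR-16-5p had the 9th highest deviation from its own 12-library median in WT replicate 3. In GLD2KO replicate 4 its deviation was the 78th highest.

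MiR-15a-5p ran from 475 to 2899 CPM in WT (median 1019) and from 421 to 1615 CPM in GLD2KO (median 985). For it, too, WT replicate 3 and GLD2KO replicate 4 were the highest of their genotypes in scaled CPM. For GLD2KO replicate 4 this depends on the scaling, with a factor of 0.784 against 1.36 in GLD2KO replicate 3. As an unscaled share, GLD2KO replicate 3 lay above it, with 4367 of 2762035 counts against 3403 of 2689827. MiR-195a-5p ran from 874 to 2514 CPM in WT (median 1241) and from 542 to 2985 CPM in GLD2KO (median 1083), with the same pair of libraries at the top. MiR-497a-5p ran from 427 to 1395 CPM in WT (median 658) and from 299.7 to 836 CPM in GLD2KO (median 742), and miR-15b-5p from 244 to 792 CPM in WT (median 479) and from 207 to 484 CPM in GLD2KO (median 416). For these last members WT replicate 3 was again highest in its genotype in scaled CPM, while GLD2KO replicate 4 lay inside the GLD2KO range. As unscaled shares of library counts, WT replicate 6 lay above WT replicate 3 for both. MiR-15b-5p held 2711 of 3082866 counts in WT replicate 6 and 1345 of 2254812 in WT replicate 3. For miR-497a-5p it was 3411 and 2369 counts.

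As a share of each library, the 5 members with the miR-15/16 seed held 0.664 ± 0.336% of the counts of WT mice and 0.613 ± 0.189% of those of GLD2KO mice (SD, n = 6 each). MiR-103-3p and miR-107-3p held 1.57 ± 0.918% and 1.79 ± 0.877%. In 10 libraries the miR-103 and miR-107 counts were 2.63 to 5.22 times the miR-15/16 counts. In WT replicate 3 they were 0.107 times, with 0.127% of counts (95% Wilson interval 0.122 to 0.131%) against 1.19% (1.17 to 1.20%). In GLD2KO replicate 4 they were 0.246 times, with 0.197% (0.192 to 0.202%) against 0.800% (0.789 to 0.810%). The intervals cover counting error only. The order of the 2 sets was therefore turned in 1 library of each genotype.

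**Figure D2:**
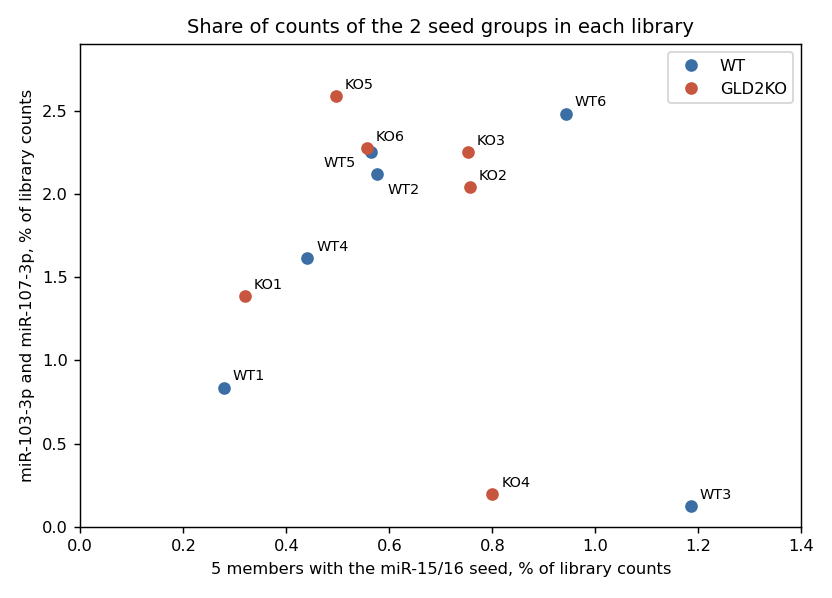
Share of library counts (%) of miR-103-3p plus miR-107-3p, on the vertical axis, against that of the 5 members with the miR-15/16 seed, on the horizontal axis; each point is a library (KO stands for GLD2KO). WT3 and KO4 lie at the bottom, at 0.127% and 0.197% for that pair, below the 0.836% or more of the other 10.

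The opposite strand of the miR-107 hairpin did not share the low level. The hairpin (GRCm38.p6, minus strand) is printed with both mature strands in capitals, miR-107-5p at bases 15 to 37 and miR-107-3p at bases 52 to 74.
Mir107: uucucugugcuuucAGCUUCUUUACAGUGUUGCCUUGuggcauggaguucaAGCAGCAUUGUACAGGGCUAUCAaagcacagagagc
MiR-107-5p ran from 9.46 to 61.2 CPM in WT (median 27.6) and from 23.6 to 101 CPM in GLD2KO (median 30.5). WT replicate 3 and GLD2KO replicate 4 held the highest scaled CPM of their genotypes, on 104 and 213 counts. In WT this depends on the scaling. WT replicate 5 held a larger unscaled share, 181 of 3348561 counts against 104 of 2254812 in WT replicate 3. The count of miR-107-5p was 0.0897 times that of miR-107-3p in WT replicate 3 and 0.141 times in GLD2KO replicate 4. In the other 10 libraries it was 0.00135 to 0.00652 times.

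Ratios between members within a library do not depend on how libraries are scaled, and 5 such ratios were compared between genotypes by two-sided exact permutation over 924 relabellings, with Benjamini-Hochberg adjustment over the 5. None passed. The log2 ratio of miR-107-3p to miR-103-3p was -0.44 ± 0.114 in WT and -0.57 ± 0.376 in GLD2KO (SD, 6 mice each; difference -0.13, exact permutation adjusted p = 0.798). It lay between -0.58 and -0.25 in the other 10 libraries, at -0.53 in WT replicate 3 and at -1.31 in GLD2KO replicate 4. Without WT replicate 3 and GLD2KO replicate 4 the difference was 0.00 (SE 0.0718). For miR-107-5p over miR-107-3p it was 0.40 (SE 1.23, exact permutation adjusted p = 0.798). It was 1.20 without WT replicate 3, -0.46 without GLD2KO replicate 4 and 0.35 without both, so single libraries decided its size and sign.

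Ratios between cluster partners of the miR-15/16 family lay within their spread between mice. The log2 ratio of miR-15a-5p to miR-16-5p was -1.13 ± 0.275 in WT and -1.48 ± 0.452 in GLD2KO (SD, 6 mice each; difference -0.35, exact permutation adjusted p = 0.768). That of miR-15b-5p to miR-16-5p was -2.30 ± 0.561 and -2.67 ± 0.876 (difference -0.37, exact permutation adjusted p = 0.798). That of miR-195a-5p to miR-497a-5p, from neighbouring hairpins, was 0.98 ± 0.627 and 0.85 ± 1.29 (difference -0.13, exact permutation adjusted p = 0.814). This last ratio was the loosest of the cluster pairs, as miR-195a-5p had between 0.648 and 5.86 times the counts of miR-497a-5p.

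**Figure D3:**
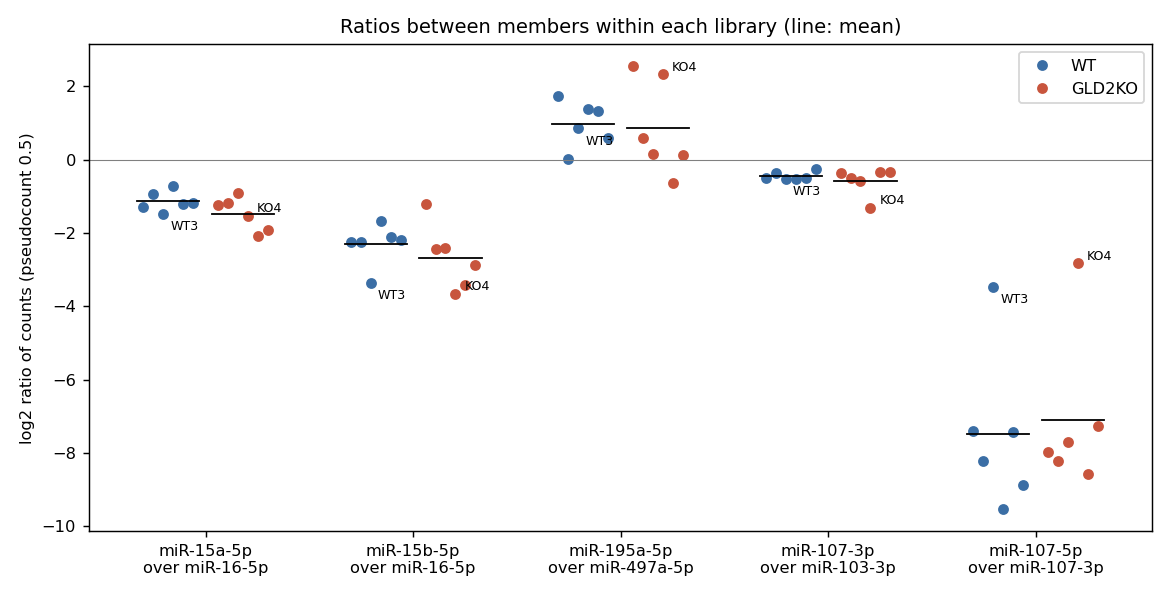
Log2 ratio of counts between pairs of members in each library (pseudocount 0.5), with WT in blue and GLD2KO in red; lines are group means. For miR-107-5p over miR-107-3p, WT3 at -3.48 and KO4 at -2.83 stand above the other 10 libraries, which lie at -7.26 or below.

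The main comparison, GLD2KO against WT, gave no call for any member. The quasi-likelihood test of edgeR over the whole table called 0 of 521 miRNAs (0%) at an adjusted p of 0.05. Without adjustment 25 (4.8%) fell under 0.05, of which 0 were members. DESeq2, run on all 1325 miRNAs with a count, called 0 and had 45 under 0.05 before adjustment. Limma-voom, run on 521, called 0 and had 23. Of the 8 members 3 lay higher and 5 lower in GLD2KO, against 58.7% higher and 41.3% lower over all tested miRNAs. Their median log2 fold change was -0.10, against 0.12 over all tested miRNAs, and 0.21 against 0.13 without WT replicate 3 and GLD2KO replicate 4. The groups overlapped for all 8 members, and did not overlap for 3 tested miRNAs (0.576%).

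Among the members with the miR-15/16 seed, miR-16-5p averaged 2984 ± 2601 CPM over the WT mice and 2632 ± 1204 CPM over the GLD2KO mice (SD, n = 6 each). Its log2 fold change, GLD2KO minus WT, was -0.18 (SE 0.48, edgeR adjusted p = 0.978). Its sign was not stable. The fold change was 0.46 without WT replicate 3 and 0.24 without both libraries that stood apart. With all libraries it was 0.0023 with limma-voom and 0.03 with a replicate block. MiR-15a-5p had -0.41 (SE 0.45), and 0.05 without WT replicate 3. MiR-15b-5p had -0.41 (SE 0.37), the member with the lowest unadjusted p (0.276). MiR-195a-5p had -0.06 (SE 0.43) and miR-497a-5p -0.15 (SE 0.39), and these turned to 0.22 and 0.17 without WT replicate 3. MiR-195a-5p also turned without GLD2KO replicate 3 (0.01), replicate 5 (0.12) or replicate 6 (0.03). MiR-497a-5p was 0.0036 when scaled by library totals and 0.22 without both libraries that stood apart.

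MiR-103-3p averaged 8403 ± 4025 CPM over the WT mice and 9484 ± 4044 CPM over the GLD2KO mice (SD, n = 6 each). The log2 difference was 0.17 with an SE of 0.51 (edgeR adjusted p = 0.981). Without the 2 libraries that stood apart, WT was at 9884 ± 1944 and GLD2KO at 11022 ± 1638 CPM (SD, n = 5 each), and the log2 fold change was 0.21 with a narrower 95% confidence interval, from -0.41 to 0.83 instead of -0.90 to 1.25. With a single library left out it was lowest at 0.00092, without WT replicate 3, and highest at 0.44, without GLD2KO replicate 4. MiR-107-3p had 0.16 (interval -1.02 to 1.33), and 0.21 (interval -0.44 to 0.86) without them. MiR-107-5p had 0.54 (SE 0.50), 0.50 without them and 0.13 without GLD2KO replicate 4 alone. With all libraries a 2-fold change in either direction lay outside the interval of 2 members, miR-195a-5p and miR-497a-5p. Without those that stood apart it lay outside that of 5. Those libraries were singled out by their miR-103-3p and miR-107-3p values, so narrower intervals for these 2 miRNAs follow from that choice. The intervals without those libraries are a description only. A p above the threshold does not show that the genotypes were alike.

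**Figure D4:**
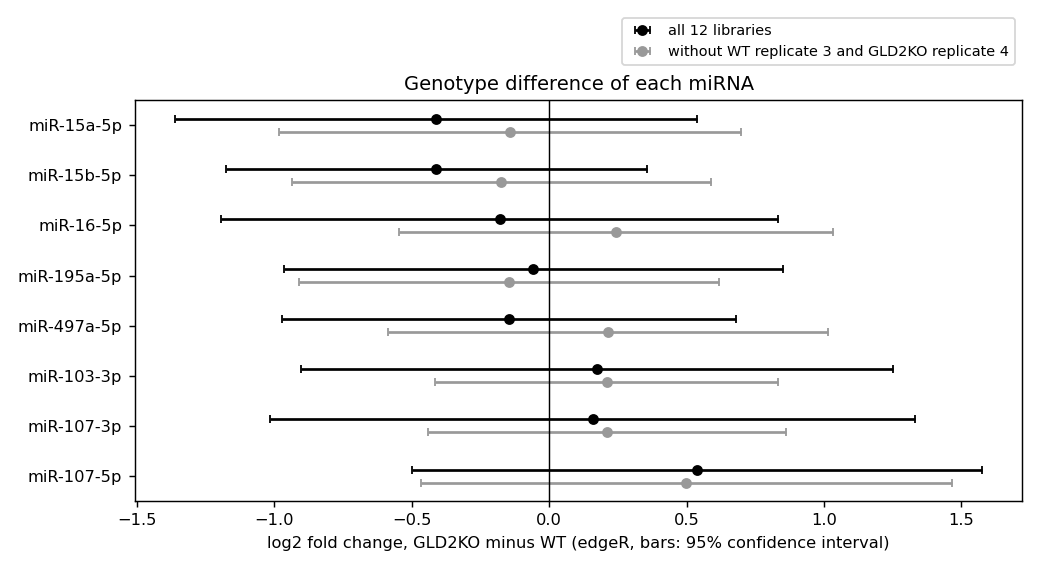
Log2 fold change of each member, GLD2KO minus WT, from edgeR with its 95% confidence interval, with all 12 libraries (black) and without WT replicate 3 and GLD2KO replicate 4 (grey). All 16 intervals include 0. Those of miR-103-3p and miR-107-3p narrow most, which follows from singling out the libraries by these values.

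The other 8 strands of the same hairpins were scarce, with means over the 12 libraries from 6.89 to 13.8 CPM, and 7 of them had enough counts to test. In GLD2KO 5 of these were higher and 2 lower (median log2 difference 0.31), and none passed the threshold. MiR-16-2-3p, from the Mir15b cluster, averaged 6.97 ± 4.30 CPM over the WT mice and 12.9 ± 5.18 CPM over the GLD2KO mice (SD, n = 6 each), and the groups overlapped. The log2 difference was 0.90 with an SE of 0.48 (edgeR adjusted p = 0.841). MiR-16-1-3p, from the Dleu2 cluster, had 1 count in WT replicate 3 and 10 in GLD2KO replicate 4, whereas miR-16-5p was at its highest in those libraries.

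The 5′ strands of the miR-103 hairpins were high in a single WT library. WT replicate 5 held 415 counts of miR-103-2-5p (109 CPM) against 0.860 to 12.7 CPM in the other 11, and 226 counts of miR-103-1-5p (59.6 CPM) against 0.245 to 7.07 CPM. Its miR-103-3p, at 11595 CPM, was the highest of the WT libraries but below the highest GLD2KO library. MiR-103-2-5p had a log2 difference of -1.81 with an SE of 0.91 (edgeR adjusted p = 0.841), and without WT replicate 5 it turned to 0.73. It was -0.20 with limma-voom and 0.11 with a replicate block. MiR-103-1-5p was too scarce for the filter, and when the filter was left off it was called at -2.62 (edgeR adjusted p = 0.00482), with WT replicate 5 as the only library above 7.07 CPM. Another 5 miRNAs of the table carry AGCAGCA at base 1 or 2 of their RefSeq sequence, of which only miR-322-5p, the mouse counterpart of miR-424, had enough counts to test. It averaged 148 ± 53.2 CPM over the WT mice and 133 ± 37.6 CPM over the GLD2KO mice (SD, n = 6 each). WT replicate 3 was its highest library in scaled CPM, with 414 of 2254812 counts. As an unscaled share WT replicate 6 lay above it, with 654 of 3082866 counts. The log2 difference was -0.16 with an SE of 0.37 (edgeR adjusted p = 0.978).

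Members of a pair were also compared across libraries, as log2 CPM after removal of the genotype mean. There were 6 pairs, each tested with 100000 permutations and Benjamini-Hochberg adjustment over the 6. MiR-15a-5p and miR-16-5p, which share the Dleu2 cluster, moved together over the 12 libraries (r = 0.902, permutation adjusted p = 0.0003; Spearman's rho = 0.804, adjusted p = 0.0081). Without the 2 libraries farthest from the median, WT replicate 3 and GLD2KO replicate 1, r was 0.759, and it was 0.964 within WT and 0.813 within GLD2KO. WT replicate 3 and GLD2KO replicate 4 were the highest libraries for both miRNAs in scaled CPM. Without them r was 0.780 (permutation adjusted p = 0.0234), but rho, at 0.576, no longer passed (adjusted p = 0.176). MiR-15b-5p and miR-16-5p did not pass (r = 0.530, permutation adjusted p = 0.115; rho = 0.469, adjusted p = 0.256), with r = 0.353 without the 2 farthest libraries, 0.861 within WT, -0.0683 within GLD2KO and 0.384 without WT replicate 3 and GLD2KO replicate 4. The difference between the 2 correlations was not tested.

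The neighbouring miR-195a-5p and miR-497a-5p did not pass either (r = -0.120, permutation adjusted p = 0.711; rho = -0.231, adjusted p = 0.560), with r = -0.000497 without the 2 farthest libraries, 0.466 within WT and -0.522 within GLD2KO. Without WT replicate 3 and GLD2KO replicate 4 r was -0.658 (permutation adjusted p = 0.0779) and rho -0.600 (adjusted p = 0.176). For miR-107-3p with miR-103-3p no pooled value is given, because WT replicate 3 and GLD2KO replicate 4 form a cluster of their own. Over the other 10 libraries r was 0.9495 (permutation adjusted p = 0.00186) and rho 0.794 (adjusted p = 0.0524). For miR-107-5p with miR-107-3p the same 10 libraries gave r = 0.212 (permutation adjusted p = 0.558) and rho = 0.152 (adjusted p = 0.685). Since miR-103-3p and miR-107-3p may share reads, their correlation is not independent of how reads were assigned.

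The libraries low in miR-103-3p and miR-107-3p were also low in a miRNA of red blood cells. MiR-451a, which those cells make in large amounts, had 615 CPM in WT replicate 3 and 1090 CPM in GLD2KO replicate 4, against 2679 to 23737 CPM in the other 10. The list of 4 for these cells summed to 768 and 1425 CPM in them and to between 3669 and 24469 CPM in the others, but miR-451a made up most of each sum, and none of the 4 was at 0 in any library. MiR-144-3p was likewise lowest in both, at 37.1 and 57.9 CPM against 82.3 to 486 CPM. MiR-144-5p lay inside the range of the other 10 in both, at 26.5 and 34.2 CPM against 12.001 to 83.7 CPM. MiR-486-5p was lowest in WT replicate 3, at 89.5 CPM, and inside the range in GLD2KO replicate 4, at 243 CPM against 162 to 569 CPM.

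Markers of other cells went in differing directions in WT replicate 3, where miR-16-5p was highest. Of the oligodendrocyte list, miR-338-3p was at its highest there, at 39674 CPM against 7647 to 28349 CPM in the 10 others, and it made up most of the list's sum of 40409 CPM (8810 to 30583 CPM in the 10 others). MiR-219a-2-3p was at its lowest there, at 213 CPM against 322 to 2083 CPM, and miR-219a-5p was at 522 CPM, below the WT median of 1720.3 CPM. Of the blood vessel list, which summed to 16047 CPM (4802 to 10210 CPM in the 10 others), miR-145a-5p was highest there, at 11337 CPM. MiR-126a-5p, at 1646 CPM, was the highest of WT, while miR-143-3p, at 529 CPM, was the lowest of WT, and miR-126a-3p, at 2534 CPM, lay below the WT median of 3416 CPM. The part of any of these cells in the members' levels was not tested. The correlation of miR-16-5p with miR-451a, both abundant in blood, did not pass (r = -0.413, permutation adjusted p = 0.216; rho = -0.154, adjusted p = 0.633), with r = -0.217 without the 2 farthest libraries and 0.559 without WT replicate 3 and GLD2KO replicate 4.

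Other miRNAs shared the pattern of miR-103-3p and miR-107-3p in those 2 libraries. Of the 521 tested, 53 (10.2%) lay at least 4-fold below their own 12-library median in WT replicate 3 and 32 (6.14%) in GLD2KO replicate 4. In both libraries 14 (2.69%) did. The most abundant of the 14 were miR-103-3p, miR-451a, with a mean of 8379 CPM, and miR-107-3p, and the next had 494 CPM. All 3 start with A, and 2 of them are the near-identical members. Of the 14, 6 start with A, 3 with C, 2 with G and 1 with U, and 2 have no sequence in the table. The base at position 1 was looked at after the values were seen, over the 434 tested miRNAs with a RefSeq sequence, and is a description only. The 121 that start with A had median log2 deviations of -0.49 in WT replicate 3 and -0.22 in GLD2KO replicate 4, and the 171 that start with U, as 4 of the 5 miR-15/16 members do, had 0.13 and 0.14. The 95 that start with C had -0.40 and 0.03, the 47 that start with G had -0.22 and -0.28, and all 521 tested had -0.17 and 0.01. Of the A starters 14.9% and 11.6% lay at least 4-fold low in these libraries, and of the C starters 10.5% and 5.26%. The shares were 8.51% and 8.51% of the G starters and 6.43% and 2.92% of the U starters. By length, the 72 of 23 bases had medians of -0.64 and -0.13, the 244 of 22 bases -0.22 and 0.09, and the 76 of 21 bases 0.14 and -0.01. MiR-107-5p also starts with A and has 23 bases, and it was not low. The part of the first base or of length in these levels was not tested.

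By the profile of log2 CPM over the 12 libraries, the miRNAs most like miR-103-3p other than miR-107-3p were miR-344d-1-5p (r = 0.954), miR-351-5p (r = 0.895) and miR-140-5p (r = 0.892). Without WT replicate 3 and GLD2KO replicate 4 these were 0.694, -0.0489 and 0.588, so for miR-351-5p the likeness rested on those libraries. The miRNAs most like miR-16-5p outside the group were let-7c-1-3p (r = 0.848), miR-145a-5p (r = 0.822) and miR-223-3p (r = 0.816), and without the 2 libraries these were 0.611, 0.857 and 0.788. MiR-145a-5p, a miRNA of vascular smooth muscle, had 11337 CPM in WT replicate 3 and at most 2857 CPM elsewhere.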

How the data were processed

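Small RNA was extracted with TRIzol from the hippocampus of 12 mice, size-selected on a gel and sequenced on an Illumina instrument, per the labels' protocols. Trimmomatic 0.32, cutadapt 1.3 and the build GRCm38 appear in the submitters' processing notes. For the aligner, the counter and shared reads the sources used here give nothing. The authors deposited raw read counts per miRNA for 1908 miRNAs, and 1 further line that names none held 0 counts.

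Groups were taken from the labelled genotype. Each library is a separate mouse, so p-values measure the spread between mice and their libraries. Counts were filtered with filterByExpr, which kept 521 miRNAs with 99.96% of counts, scaled by TMM and tested with edgeR 4.0.16 (quasi-likelihood, R 4.3.3, Benjamini-Hochberg over all tested miRNAs). Values in CPM are TMM-scaled. Log2 ratios used a pseudocount of 0.5, and ratios and correlations were tested by permutation in Python 3.11.15. The Wilson intervals were computed with SciPy 1.17.1. Alternatives were DESeq2 1.42.0, limma-voom 3.58.1, other scaling factors and filters, a replicate block and leaving out each library. Leaving out WT replicate 3 and GLD2KO replicate 4 together was added after seeing the data.

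The members, marker lists and tests were chosen with earlier results of these data known. Named were the 8 members, the other strands of their hairpins, miRNAs with the shared run and the 3 most similar profiles for miR-16-5p and miR-103-3p. The choice of the base 1 and length comparison, and of miR-451a beside the members, was made after their values were seen. Sequences are from RefSeq (GRCm38.p6), which holds 434 of the 521 tested miRNAs. Gld2 messenger RNA and nucleotides added to 3′ ends were not analysed here.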

Additional observations from a re-analysis of the deposited data

Results flagged for a closer look

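Values of 46 groups of 6 libraries were checked for a single library far from the other 5 (Dixon's 95% limit), and 12 were found. Chance gives about 1 in 20, or 2.3, for separate groups of normally distributed values. These groups share libraries, the ratios reuse the members' counts, and CPM need not be normal. The 12 against 2.3 is therefore a description only. WT replicate 3 was far above the other WT libraries for miR-15a-5p, at 2899 CPM against 475 to 1330 CPM, for miR-16-5p, at 8141 CPM against 1156 to 3020 CPM, and for miR-195a-5p, at 2514 CPM against 874 to 1425 CPM. Its log2 ratio of miR-15b-5p to miR-16-5p was -3.36 against -2.24 to -1.68. Levels were checked as TMM-scaled CPM only, with factors of 0.753 for WT replicate 3 and 1.33 for WT replicate 6. Without this scaling the distances of WT replicate 3 in the levels above are smaller. MiR-16-5p held 13825 of 2254812 counts in WT replicate 3 and 12331 of 3082866 in WT replicate 6. Unscaled shares were not checked against the limit.

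GLD2KO replicate 4 was far below the other GLD2KO libraries for miR-103-3p, at 1791 CPM against 9529 to 12975 CPM. Its log2 ratio of miR-107-3p to miR-103-3p was -1.31 against -0.58 to -0.34. The low CPM of miR-103-3p in WT replicate 3 was not past the limit. Nor was the low CPM of miR-107-3p in WT replicate 3 or in GLD2KO replicate 4. The distance of miR-103-3p in GLD2KO replicate 4 is also smaller without TMM scaling. The log2 ratio of miR-107-5p to miR-107-3p stood out in both libraries, at -3.48 in WT replicate 3 against -9.54 to -7.41 in the other WT libraries, and at -2.83 in GLD2KO replicate 4 against -8.58 to -7.26.

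The rest were scarce strands. GLD2KO replicate 1 had 22.0 CPM of miR-15b-3p against 2.18 to 8.68 CPM, and 27.4 CPM of miR-195a-3p against 5.67 to 12.5 CPM. WT replicate 5 had 59.6 CPM of miR-103-1-5p against 0.245 to 7.07 CPM, and 109 CPM of miR-103-2-5p against 0.860 to 5.89 CPM.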

How the results depend on the processing

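No member passed the threshold under any alternative. Without the low-count filter 7 of 1325 miRNAs were called, among them miR-103-1-5p but none of the 8 members, and the other alternatives called 0. Without WT replicate 3 the log2 fold change turned sign for 5 members, to 0.051 for miR-15a-5p, 0.46 for miR-16-5p, 0.22 for miR-195a-5p, 0.17 for miR-497a-5p and -0.02 for miR-107-3p. With each library left out in turn the first 2 ran from -0.67 to 0.051 and from -0.49 to 0.46. The ranges were -0.55 to -0.19 for miR-15b-5p, -0.47 to 0.22 for miR-195a-5p, -0.27 to 0.17 for miR-497a-5p, 0.00092 to 0.44 for miR-103-3p, -0.02 to 0.44 for miR-107-3p and 0.13 to 0.85 for miR-107-5p. The correlation of miR-15b-5p with miR-16-5p was 0.701 (permutation adjusted p = 0.0353) without GLD2KO replicate 1. Without WT replicate 3 and GLD2KO replicate 4 the rho of miR-15a-5p with miR-16-5p was no longer past the threshold (0.576, permutation adjusted p = 0.176). The cause was not tested. Same-numbered libraries deviated together little (r from -0.232 to 0.241). The labels do not say that the numbers pair the mice, and these correlations cannot settle it. A replicate block called 0 miRNAs and gave miR-16-5p 0.03. Depth limits miR-107-5p (33 to 213 counts) and the scarce strands most.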
